A study of Mus musculus with 8 samples.

Results

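The plasminogen activation genes described here are 5 genes taken by name from the 21240 genes of the count table: Plau, Plat, Plaur, Serpinb2 and Serpine2. All 5 were found in the table. They were followed in NMuMG cells, an established epithelial line from normal mouse mammary gland, labelled wild type. The cells were grown in medium with serum and insulin. They received either BRM014 or its vehicle DMSO, and RNA was taken after 6 h and after 30 h, which gave 4 groups of 2 libraries. BRM014 inhibits the ATPase activity of SMARCA4 and SMARCA2, the catalytic subunits of the SWI/SNF chromatin remodelling complexes, and the labels give no dose for it. The labels call the libraries of a group biological replicates without saying how the cultures were kept apart. The p-values therefore measure the spread between these libraries, which may be partly technical.

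Plasmin is a broad serine protease that dissolves fibrin and degrades matrix proteins. It is made from the circulating zymogen plasminogen by urokinase (uPA, the product of Plau) or by tissue-type activator (tPA, the product of Plat). The receptor uPAR, the product of Plaur, holds urokinase at the cell surface through a lipid anchor. Serpins block both activators as suicide substrates, among them PAI-2 (Serpinb2) and protease nexin-1 (Serpine2), which also inhibits thrombin. In mammary tissue the system is known for its part in tissue remodelling and in invasion.

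The libraries held 17859693 to 29955366 counts, and the largest was BRM014 30 h replicate 2. Replicates correlated with r = 0.99 to 0.994 over 11835 tested genes, on the log2 scale of CPM (counts scaled to library size). The epithelial markers Krt8, Krt18 and Cdh1 were abundant. Epcam had 0 counts in all 8 libraries, and Cldn4 and Esrp1 had at most 1 count in any library. The summed level of the 6 epithelial markers was 5190 to 5650 CPM in DMSO at 6 h, 5260 to 5730 CPM in BRM014 at 6 h, 4360 to 4510 CPM in DMSO at 30 h and 6780 to 8000 CPM in BRM014 at 30 h. Its part in the results below was not tested. Macrophages also express Plaur, Plau and Serpinb2, so their markers were summed too. All 6 macrophage markers together gave 6.96 to 8.06 CPM in DMSO at 6 h, 3.8 to 5.33 CPM in BRM014 at 6 h, 3.81 to 6.09 CPM in DMSO at 30 h and 2.22 to 2.35 CPM in BRM014 at 30 h, and 2 of the 6 were at 0 counts in all libraries. Most of each sum came from Cd68 alone, with group means of 7.46, 4.4, 4.85 and 2.22 CPM in the same order. The part of these low macrophage sums in the results was not tested either. The 6 fibroblast markers summed to at most 2.66 CPM in any library, the 6 adipocyte markers to at most 9.46 CPM and the 6 endothelial markers to at most 0.26 CPM. RNA was taken from whole cultures, so fewer cells that express a gene and less of its RNA per cell cannot be told apart.

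Start-site windows from RefSeq (build GRCm38.p6), 250 bases before to 50 after an annotated start, were matched by gene ID for Plaur, Serpine2 and Serpinb2, 3 of the 5 members, and not for Plau and Plat. They are shown because they could be matched. These 3 genes are the member with the largest change that passed at 30 h, the member that was near 0 everywhere and the member that was detected mainly in 1 group. The Plaur window lies on the plus strand at chr7:24462233-24462532, the Serpine2 window on the minus strand at chr1:79858616-79858915 and the first of 2 Serpinb2 windows on the plus strand at chr1:107511173-107511472. Each is printed 5′ to 3′ in the direction of transcription, with matches to the motifs searched in capitals.
Plaur: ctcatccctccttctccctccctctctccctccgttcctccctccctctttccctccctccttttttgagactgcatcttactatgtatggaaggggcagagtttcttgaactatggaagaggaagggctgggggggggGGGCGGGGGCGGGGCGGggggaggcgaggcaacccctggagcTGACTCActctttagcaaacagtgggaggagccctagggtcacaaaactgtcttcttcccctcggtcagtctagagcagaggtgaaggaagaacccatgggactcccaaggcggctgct
Serpine2: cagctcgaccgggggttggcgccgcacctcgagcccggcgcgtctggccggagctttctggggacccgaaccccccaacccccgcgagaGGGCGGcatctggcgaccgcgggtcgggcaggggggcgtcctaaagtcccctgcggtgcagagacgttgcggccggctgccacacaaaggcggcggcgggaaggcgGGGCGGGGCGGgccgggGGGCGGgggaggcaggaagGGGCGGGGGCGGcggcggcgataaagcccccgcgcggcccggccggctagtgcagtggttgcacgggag
Serpinb2: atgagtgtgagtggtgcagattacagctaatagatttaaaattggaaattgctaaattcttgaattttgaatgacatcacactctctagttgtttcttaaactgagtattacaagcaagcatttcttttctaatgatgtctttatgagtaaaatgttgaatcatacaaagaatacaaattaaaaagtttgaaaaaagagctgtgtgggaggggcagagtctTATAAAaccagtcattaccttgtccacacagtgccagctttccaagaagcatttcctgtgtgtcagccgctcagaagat

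The motifs were searched on both strands. The Plaur window holds 1 AP-1 heptamer (TGACTCA), whose first base is at -69 from the start. This sequence was found in 5.2% of 32851 RefSeq windows of this length, a background from which 1 chromosome was left out. It also holds 3 adjacent or overlapping SP1 hexamers (GGGCGG, in 35.7% of windows) from -111. The Serpine2 window holds 6 SP1 hexamers, some of them adjacent or overlapping, and the Serpinb2 window holds the TATA box letters TATAAA at -29 (in 13.6% of windows). The TEAD letters GGAATG (14.7% of windows) and the ETS letters CCGGAA (14.9%) were in none of these 3 windows. The windows also differed in base composition, with 77.7% G and C and 41 CpG pairs for Serpine2, 59.3% and 7 for Plaur and 35.3% and 1 for Serpinb2. The medians over the same 32851 windows were 52.7% and 7. A match describes the letters only and says nothing about binding in these cells.

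BRM014 raised the receptor gene Plaur at both times, and raised it most at 30 h. In DMSO, Plaur (Entrez 18793) was at 397 and 310 CPM at 6 h and at 182 and 145 CPM at 30 h. With BRM014 it was at 512 and 570 CPM at 6 h and at 627 and 807 CPM at 30 h. Both BRM014 libraries stood above both DMSO libraries at each time. Of all tested genes, 30.8% showed such a separation upward and 34.4% downward at 6 h, and 32.9% and 33.9% at 30 h, so it is common with 2 libraries a group. The log2 fold change was 0.61 ± 0.15 (SE, n = 2 against 2 libraries) at 6 h, with a Benjamini-Hochberg adjusted p of 0.00844 from edgeR's quasi-likelihood test over all tested genes. At 30 h it was 2.13 ± 0.15 (edgeR adjusted p = 3.28e-07), a 4.39-fold higher level, and 1.14% of the tested genes had a higher log2 fold change. The 30 h call held in all 17 alternatives, which gave 1.94 to 2.32 with adjusted p of at most 1.61e-05. The 6 h call was lost when DMSO 6 h library 2 was left out (0.44, adjusted p = 0.103) or BRM014 6 h library 2 (0.56, adjusted p = 0.0763). The alternatives ranged from 0.44 to 0.8 (adjusted p = 2.56e-08 to 0.103).

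The effect of BRM014 on Plaur was larger at 30 h than at 6 h by 1.52 ± 0.21 on the log2 scale (edgeR adjusted p = 0.00093), and this call held in all 16 alternatives (1.33 to 1.71, adjusted p of at most 0.0103). Over time Plaur moved in opposite directions in the 2 treatments. In DMSO it fell by 1.11 ± 0.15 from 6 h to 30 h (log2 scale, edgeR adjusted p = 0.000171), and in BRM014 it rose by 0.41 ± 0.15 (edgeR adjusted p = 0.0443). The fall held in all 17 alternatives. Both 30 h libraries lay below both 6 h libraries in DMSO, as for 32.9% of tested genes (34.8% lay above), and above them in BRM014, as for 36.8% (34.9% lay below). The rise in BRM014 was lost when BRM014 6 h library 1 was left out (0.33, adjusted p = 0.255). The same happened for BRM014 6 h library 2 (0.48, adjusted p = 0.0962) and for BRM014 30 h library 2 (0.21, adjusted p = 0.357), with a range of 0.21 to 0.58 (adjusted p = 0.000905 to 0.357). These comparisons share libraries with the BRM014 comparisons, so the values are given side by side and are not separate evidence.

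**Figure D1:**
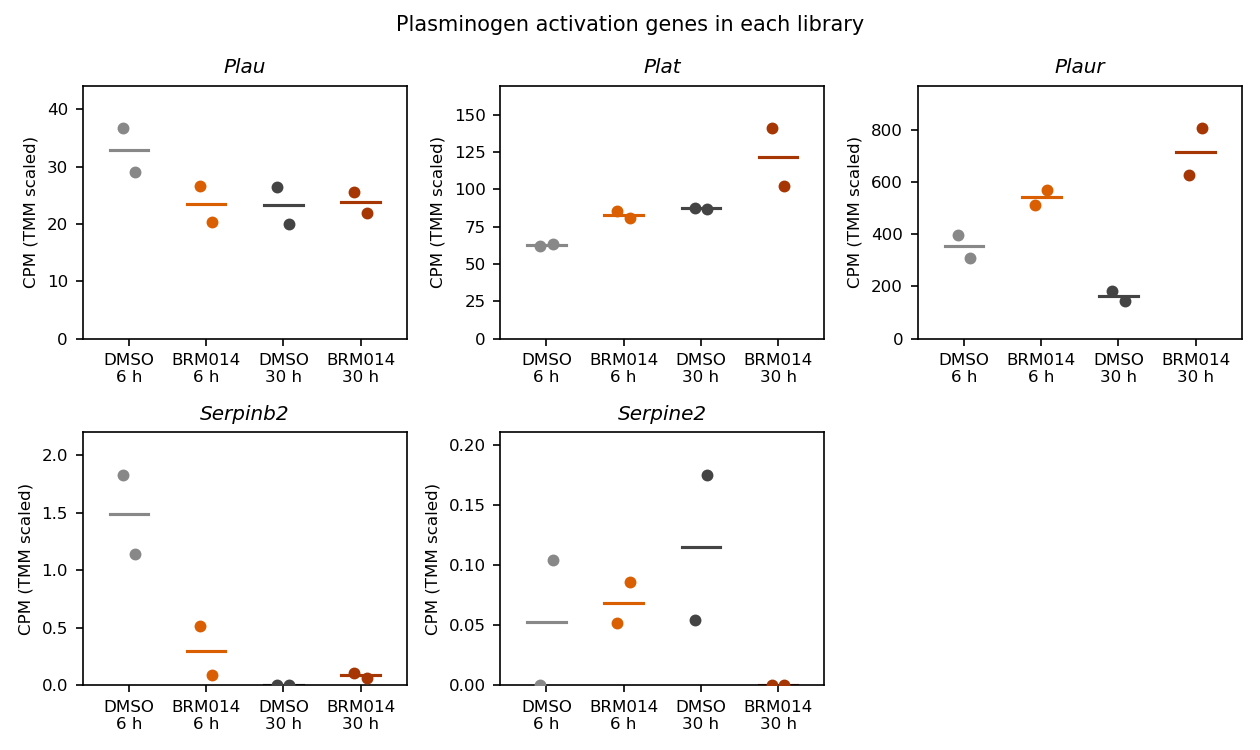
CPM (TMM scaled, vertical axis from 0 in each panel) of the 5 members in each of the 8 libraries. Points are libraries and lines are the means of 2 libraries. Plaur spreads from 145 CPM in DMSO at 30 h to 807 CPM in BRM014 at 30 h, and the Serpinb2 and Serpine2 axes end near 2 CPM or below.

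The tPA gene Plat rose with BRM014 and also rose with time in DMSO. Plat (Entrez 18791) was at 61.7 and 63.2 CPM in DMSO and 85.5 and 80.5 CPM in BRM014 at 6 h. At 30 h it was at 87.5 and 86.9 CPM in DMSO and 141 and 102 CPM in BRM014. The groups did not overlap at either time, as for 30.8% of tested genes upward at 6 h and 32.9% at 30 h (34.4% and 33.9% downward). The 2 BRM014 libraries at 30 h lay farther apart than those of any other group. The log2 fold change for BRM014 was 0.41 ± 0.13 at 6 h (edgeR adjusted p = 0.0366) and 0.47 ± 0.13 at 30 h (edgeR adjusted p = 0.0113). The difference between these effects was 0.06 ± 0.18 (edgeR adjusted p = 0.886), with a 95% interval of -0.33 to 0.46. From 6 h to 30 h Plat rose by 0.48 ± 0.13 in DMSO (edgeR adjusted p = 0.0127) and by 0.54 ± 0.13 in BRM014 (edgeR adjusted p = 0.00551).

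The BRM014 calls for Plat depended on single libraries. The 6 h call ended when any 1 of the 4 libraries of that time was left out (0.39 to 0.49): DMSO library 1 (adjusted p = 0.157) or 2 (0.12), or BRM014 library 1 (0.151) or 2 (0.0848). It also ended with scaling to ribosomal protein genes (0.45, adjusted p = 0.0693), and over all 17 alternatives the adjusted p ran from 0.00146 to 0.157. The 30 h call was lost when the higher of the BRM014 30 h libraries, library 1, was left out, and the value was then 0.23 (adjusted p = 0.14, against 0.000244 to 0.14 over the alternatives). The rise with time in DMSO was lost when DMSO 6 h library 1 (0.46, adjusted p = 0.0807) or library 2 (0.49, adjusted p = 0.0547) was left out. That in BRM014 was lost when BRM014 6 h library 2 (0.49, adjusted p = 0.055) or BRM014 30 h library 1 (0.29, adjusted p = 0.0724) was left out. Over the alternatives the adjusted p ran from 0.000149 to 0.0807 and from 2.85e-05 to 0.0724.

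The urokinase gene Plau stayed within a narrow range. Plau (Entrez 18792) was at 36.7 and 29 CPM in DMSO and 26.6 and 20.3 CPM in BRM014 at 6 h. At 30 h it was at 26.4 and 20 CPM in DMSO and at 25.6 and 21.9 CPM in BRM014. DMSO at 6 h was the highest group, and the other 3 groups overlapped. At 6 h the log2 difference of -0.49 ± 0.18 did not pass (edgeR adjusted p = 0.0608). It passed in 5 of 17 alternatives. In 2 of these, DMSO 30 h library 1 (adjusted p = 0.0298) or library 2 (adjusted p = 0.0286), both outside that comparison, was left out, and the others changed the filter, the libraries fitted or the terms of the model. The alternatives gave -0.67 to -0.27 (adjusted p = 0.0047 to 0.479). At 30 h the difference was 0.03 ± 0.18 (edgeR adjusted p = 0.901), with a 95% interval of -0.35 to 0.42. In DMSO, Plau fell from 6 h to 30 h by 0.51 ± 0.18 (log2 scale, edgeR adjusted p = 0.0389), a call that held in 10 of 17 alternatives. It was lost when DMSO 6 h library 1 (-0.33, adjusted p = 0.289), DMSO 30 h library 2 (-0.32, adjusted p = 0.226) or BRM014 30 h library 1 (-0.49, adjusted p = 0.0548) was left out. The alternatives ranged from -0.72 to -0.32 (adjusted p = 0.00273 to 0.289). In BRM014 the change with time was 0.01 ± 0.18 (edgeR adjusted p = 0.958).

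Of the 2 serpins among the members, Serpinb2 was detected mainly in DMSO at 6 h. Serpinb2 (Entrez 18788) had 36 and 22 counts in DMSO at 6 h and 10 and 2 counts in BRM014 at 6 h. It had 0 and 0 counts in DMSO at 30 h and 2 and 2 counts in BRM014 at 30 h. It passed the filter on low counts only through the DMSO 6 h libraries, so some difference between groups was built into its selection for the test. The 6 h log2 fold change was -2.37 ± 0.63 (edgeR adjusted p = 0.0169), and summed counts of 58 and 12 gave a ratio of 5.33 with an exact 95% interval of 2.83 to 10.9, which covers counting error only. The call was lost with DESeq2 (adjusted p = 0.0725) and when DMSO 6 h library 1 (-1.99, adjusted p = 0.135) or BRM014 6 h library 2 (-1.49, adjusted p = 0.165) was left out. The range was -4.02, when BRM014 6 h library 1 was left out, to -1.49 (adjusted p = 0.00311 to 0.165).

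From 6 h to 30 h in DMSO, Serpinb2 was at least 10.1-fold lower, taking 3 counts per library as the floor for the 30 h libraries (edgeR adjusted p = 0.000743). DMSO at 6 h, through which Serpinb2 passed the filter, is the higher group here too, so some fall was built into its selection. No fold is given for BRM014 against DMSO at 30 h, where all 4 libraries were at or under that floor, and the test did not pass (edgeR adjusted p = 0.205). Between 6 h and 30 h in BRM014 the summed counts were 12 and 4, a ratio of 3.45 with an exact 95% interval of 1.05 to 14.7 for counting error only, and the test did not pass (edgeR adjusted p = 0.202).

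Serpine2 (Entrez 20720) was close to 0 in every library and was not tested. It had 0 and 2 counts in DMSO at 6 h, 1 and 2 in BRM014 at 6 h, 1 and 4 in DMSO at 30 h and 0 and 0 in BRM014 at 30 h. Its 0 of 17859693 and 0 of 29955366 counts in BRM014 at 30 h allow up to 0.161 and 0.0978 CPM (3 counts). The summed counts were 2 in DMSO and 3 in BRM014 at 6 h, and 5 in DMSO and 0 in BRM014 at 30 h. An exact 95% interval for the 30 h ratio of DMSO to BRM014 had a lower bound of 1.1, for counting error only, and no replicated test was made at these counts.

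Among the 4 members that passed the filter on low counts, 2 rose with BRM014 at 6 h (Plaur and Plat), 1 fell (Serpinb2) and 1 did not pass (Plau). Over all 11835 tested genes, 9.35% rose and 14.4% fell in that comparison, or 23.8% in either direction. At 30 h 2 rose (Plaur and Plat) and 2 did not pass, against 16.8% of all tested genes that rose and 19.1% that fell, or 35.9% in all. For the difference between the 2 effects 1 member, Plaur, passed, against 6.47% of all genes (3.89% with a larger and 2.59% with a smaller log2 effect at 30 h). With time in DMSO 1 rose (Plat) and 3 fell (Plaur, Plau and Serpinb2), against 18% and 17.2% of all genes, or 35.2% in either direction. With time in BRM014 2 rose (Plaur and Plat), against 19.6% of all genes (36.5% in either direction, 16.9% lower), and 2 did not pass. Serpinb2 is counted here although it passed the filter only through DMSO at 6 h. With so few members these counts describe them and are not a test of the group.

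**Figure D2:**
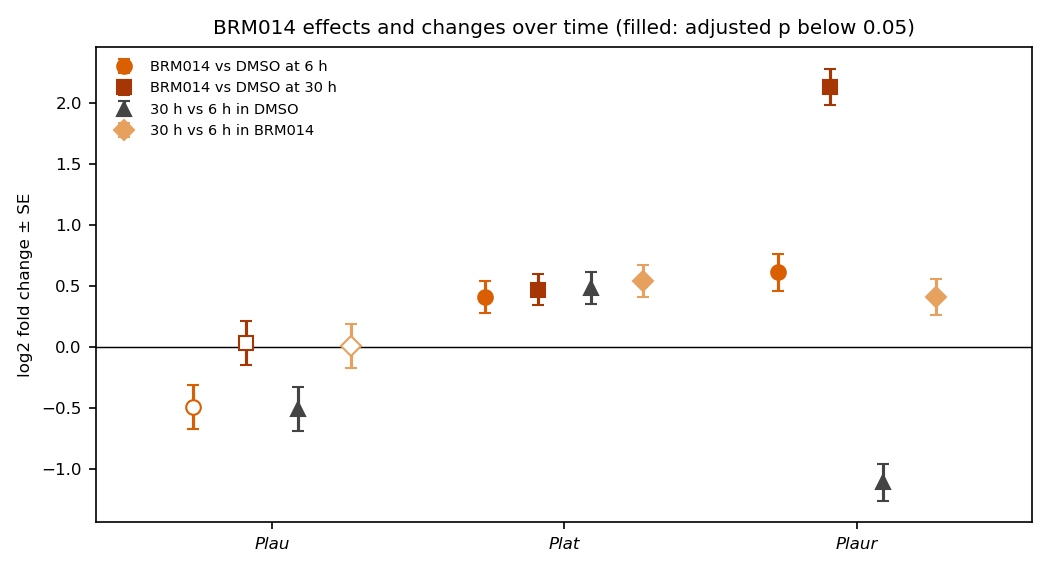
Log2 fold change ± SE (vertical axis) of Plau, Plat and Plaur in 4 comparisons, from 1 edgeR fit of 8 libraries. Filled symbols passed at an adjusted p of 0.05. Plaur has its largest value for BRM014 at 30 h (2.13) and its lowest over time in DMSO (-1.11), while the 4 values of Plat lie between 0.41 and 0.54.

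Ratios of counts within a library do not depend on how libraries are scaled. Per count of Plau there were 10.8 and 10.7 counts of Plaur in DMSO at 6 h, 19.2 and 28 in BRM014 at 6 h, 6.91 and 7.25 in DMSO at 30 h and 24.5 and 36.9 in BRM014 at 30 h. The receptor-to-urokinase ratio was thus higher in both BRM014 libraries at each time. Per count of Plau there were 1.68 and 2.18 counts of Plat in DMSO at 6 h, 3.21 and 3.96 in BRM014 at 6 h, 3.32 and 4.34 in DMSO at 30 h and 5.51 and 4.64 in BRM014 at 30 h. The balance of the 2 activator transcripts thus lay farther toward Plat with BRM014 at each time. Per count of Plat there were 6.44 and 4.91 counts of Plaur in DMSO at 6 h, 5.98 and 7.08 in BRM014 at 6 h, 2.08 and 1.67 in DMSO at 30 h and 4.44 and 7.95 in BRM014 at 30 h. The receptor-to-tPA ratio overlapped between treatments at 6 h and was higher in both BRM014 libraries at 30 h. An exact 2-sided permutation test of 2 against 2 libraries cannot give a p below 0.333, so no test is given.

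**Figure D3:**
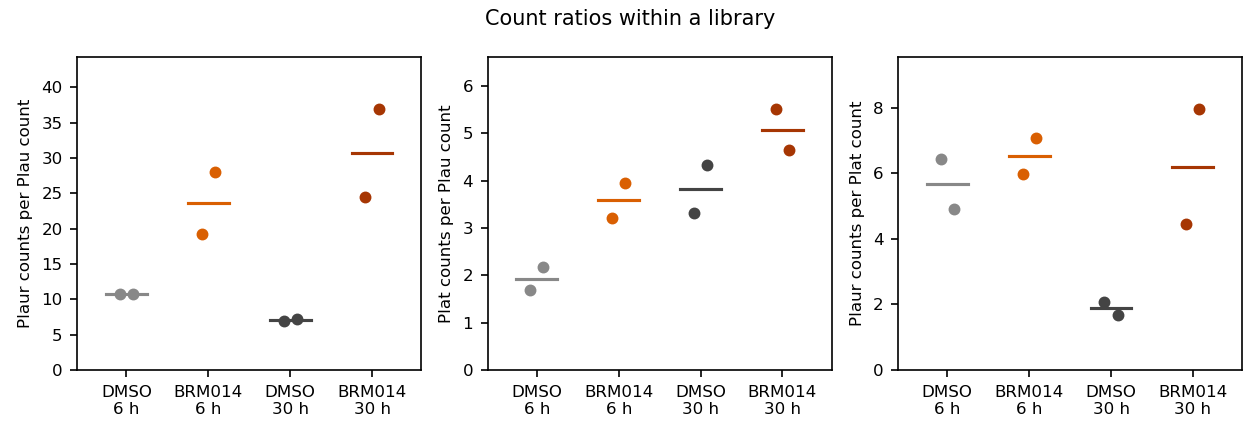
Counts of Plaur per count of Plau, of Plat per count of Plau and of Plaur per count of Plat (vertical axes from 0) in each library. Points are libraries and lines are group means. The ratio of Plaur to Plau lies between 6.91 and 10.8 in DMSO and between 19.2 and 36.9 in BRM014.

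For levels between genes, CPM was divided by exon length (the union of exons in GENCODE M21, GRCm38, which need not be the annotation behind the counts). In DMSO at 6 h the level per kilobase was 235 ± 41 CPM (SD, n = 2) for Plaur, 24.7 ± 0.424 for Plat, 14.1 ± 2.33 for Plau and 0.722 ± 0.237 for Serpinb2. The order Plaur, Plat, Plau held in each of the 4 groups with no overlap of the libraries. In BRM014 at 30 h it was 476 ± 84.9, 48.1 ± 10.9 and 10.1 ± 1.1 CPM per kilobase. Serpinb2 and Serpine2 were below 1 CPM per kilobase in every library, and their order was not read outside DMSO at 6 h, where Serpinb2 was the higher.

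The rest of the pathway was taken from 7 lists by role, with 86 genes reported, of which 50 were tested. The substrate precursor itself was not detected: Plg, which encodes plasminogen, had 0 counts in all 8 libraries, which allows 0.0978 to 0.163 CPM in a library. Of the 50 genes, 5 rose and 22 fell with BRM014 at 6 h, with a median of -0.26 against -0.01 for all tested genes. At 30 h 15 rose and 18 fell, with a median of -0.11 against 0. The remaining 23 and 17 genes did not pass. Over all tested genes 9.35% rose and 14.4% fell at 6 h, and 16.8% rose and 19.1% fell at 30 h, and each list count below stands against these shares. Of the 50 genes, F12, Mmp3, Mmp10, Thbd, Serpinb1a and Serpinb6c reached the count filter's level in both libraries of a group in DMSO only. Some difference was thus built into their selection, and these 6 are among the 22 that fell at 6 h, and 5 of them among the 18 that fell at 30 h.

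In the list of the zymogen gene Plg and further activators of the system, 1 of 6 genes was tested. F12, which encodes the contact factor XII, had 49 and 47 counts in DMSO at 6 h and 10 and 6 counts in BRM014, and fell (-2.7 ± 0.43, edgeR adjusted p = 0.000456). It reached the count filter's level in both libraries of a group in DMSO only. Of the other inhibitors reported, 3 of 10 were tested, with 1 lower at 6 h (Serpinb6a) and 1 higher (Serpini1) and 1 lower (Serpinb6a) at 30 h. Serpini1, which encodes neuroserpin, an inhibitor of tPA, rose at 30 h (1.93 ± 0.25), from 2.99 and 2.14 CPM to 11.3 and 8.28 CPM. Serpinb6a, an intracellular clade B serpin gene, fell at both times (-0.62 ± 0.08 and -0.48 ± 0.08).

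Of 8 tested genes in the list of plasminogen receptors and proteins associated with them, 2 rose at 6 h, and 4 rose and 1 fell at 30 h. Plgrkt, a transmembrane plasminogen receptor gene, rose at 6 h (0.46 ± 0.13, edgeR adjusted p = 0.0165), a call that was lost when DMSO 6 h library 1 (0.47, adjusted p = 0.0765), DMSO 6 h library 2 (0.45, adjusted p = 0.0842) or BRM014 6 h library 2 (0.45, adjusted p = 0.0985) was left out. The other was the actin gene Actb (0.35 ± 0.1, edgeR adjusted p = 0.0272), lost when DMSO 6 h library 2 (adjusted p = 0.188), BRM014 6 h library 1 (adjusted p = 0.125) or BRM014 6 h library 2 (adjusted p = 0.121) was left out. At 30 h Anxa2, the annexin A2 gene whose product binds plasminogen and tPA, rose by 0.49 ± 0.1, and Ahnak and the keratin gene Krt8 by 1.18 ± 0.13 and 0.67 ± 0.1. Krt8 was also 1 of the epithelial markers above. The gene that fell at 30 h was Eno1 (-0.54 ± 0.17, edgeR adjusted p = 0.0261). S100a10 did not pass at 6 h (-0.17 ± 0.1) or at 30 h (-0.03 ± 0.1).

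Among 12 tested genes for uPAR partners and clearance receptors, 1 rose and 4 fell at 6 h, and 4 rose and 4 fell at 30 h. The integrin genes Itga3 and Itga5 fell at 6 h (-1 ± 0.12 and -0.91 ± 0.12), and the integrin genes Itgav and Itgb5 rose at 30 h (1.01 ± 0.11 and 1.02 ± 0.14). Itgb5 was also the gene that rose at 6 h (0.71 ± 0.14). Lrp1, which encodes the endocytic receptor that clears uPA, tPA and their complexes with serpins, fell at both times (-1.65 ± 0.22, edgeR adjusted p = 0.000115, and -1.37 ± 0.21, edgeR adjusted p = 0.00024). It was at 60.5 and 88.1 CPM in DMSO and 20.7 and 26.4 CPM in BRM014 at 6 h, and at 78.9 and 122 CPM and 34.2 and 43.4 CPM at 30 h. The Lrp1 groups did not overlap at either time, as for 34.4% of tested genes downward at 6 h and 33.9% at 30 h (30.8% and 32.9% upward).

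Of 13 tested genes for substrates and proteases downstream of plasmin, 1 rose and 8 fell at 6 h, and 2 rose and 6 fell at 30 h. The collagenase gene Mmp13 fell at both times (-3.24 ± 0.23 and -6.7 ± 0.32), as did the neurotrophin gene Bdnf (-1.5 ± 0.12 and -1 ± 0.12), Mmp14 (-1.07 ± 0.11 and -0.48 ± 0.11) and Hgfac, the gene for an activator of hepatocyte growth factor (-1.56 ± 0.22 and -3.3 ± 0.26). Of 7 tested genes of thrombin signalling and tissue factor, 1 rose and 2 fell at 6 h, and 3 rose and 2 fell at 30 h. F3, the tissue factor gene, was the riser at 6 h (0.64 ± 0.14, edgeR adjusted p = 0.00441), and at 30 h F3 (2.35 ± 0.14), the thrombin receptor gene F2r (1.22 ± 0.13) and the protein C receptor gene Procr (1.08 ± 0.26) rose. The protease-activated receptor gene F2rl1 fell at 6 h (-1.17 ± 0.19), and Thbd, the thrombomodulin gene, went from 28 and 26 counts in DMSO to 0 and 2 in BRM014. Thbd, Mmp3 and Mmp10 fell at both times but reached the count filter's level in both libraries of a group in DMSO only.

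The relatives of Serpinb2 and Serpine2 form the last list, which shares Serpinb6a and Serpinb8 with the inhibitor list. The 8 tested genes reported from it were all of clade B, and the clade E gene Serpine3 was too low to be tested. Of these 8, 7 fell at 6 h and 1 did not pass, against 14.4% of all tested genes that fell. Their median at 6 h was -1.58. At 30 h 1 rose and 5 fell, with a median of -0.95, against 16.8% and 19.1% of all tested genes. Serpinb1a and Serpinb6c fell at both times but reached the count filter's level in both libraries of a group in DMSO only. Some difference was thus built into these counts and medians. Serpinb9b went from 49 and 41.3 CPM in DMSO to 10.4 and 9.51 CPM in BRM014 at 6 h, and from 28.4 and 25.2 CPM to 1.44 and 1.01 CPM at 30 h, and fell at both times (-2.19 ± 0.15 and -4.49 ± 0.2). Serpinb5, which encodes maspin, a serpin of mammary epithelium, fell by 2.76 ± 0.25 and by 2.32 ± 0.27 on the log2 scale. Serpinb9, which encodes an inhibitor of granzyme B, was at 88.8 and 96.5 CPM in DMSO and 51.5 and 51.3 CPM in BRM014 at 6 h, and at 79.7 and 63.2 CPM and 142 and 117 CPM at 30 h. It was the riser at 30 h (0.86 ± 0.12, edgeR adjusted p = 0.000138). Clade B serpins are similar in sequence, and reads shared between close copies may have been split between them in the counting.

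**Figure D4:**
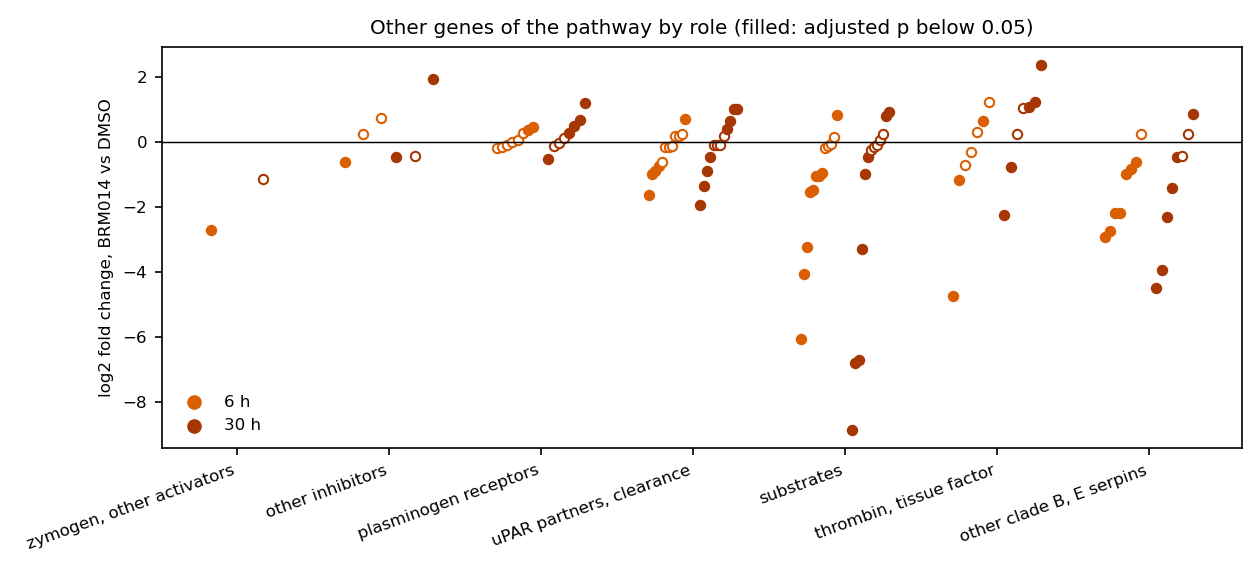
Log2 fold change of BRM014 against DMSO (vertical axis) for the tested genes of the 7 lists, at 6 h (left of each pair) and 30 h (right). Points are genes, in order of value within a list, and filled points passed at an adjusted p of 0.05. The lowest values are fitted to groups with few counts and are not bounds on a fold. In the clade B and E serpin list 7 of 8 tested genes fell at 6 h, and these 8 are all of clade B. In the plasminogen receptor list 4 of 8 rose and 1 fell at 30 h. Of the serpin genes that fell, Serpinb1a and Serpinb6c reached the count filter's level in both libraries of a group in DMSO only.

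Among 9754 genes with a mean log2 CPM of at least 2, the pattern most like that of Plaur over the 8 libraries was that of F3 (Pearson r = 0.991 on log2 CPM), followed by Sema4b (r = 0.991), which encodes a semaphorin, and Fhdc1 (r = 0.99), which encodes a formin-domain protein. F3 was at 172 and 123 CPM in DMSO and 228 and 230 CPM in BRM014 at 6 h, and at 74.2 and 61.5 CPM in DMSO and 339 and 353 CPM in BRM014 at 30 h. Like Plaur, it was lowest in DMSO at 30 h and highest in BRM014 at 30 h, and its BRM014 effect was larger at 30 h by 1.72 ± 0.2 (edgeR adjusted p = 0.000251). In all, 182 of these 9754 genes had r above 0.9 with Plaur, so the pattern was not limited to the genes named here. The genes most like Plat were Mmp15 (r = 0.986), a membrane-type metalloprotease gene, Trafd1 (r = 0.985) and Zfp93 (r = 0.984), and 275 genes had r above 0.9 with Plat. Mmp15 passed for BRM014 at both times, and Trafd1 and Zfp93 passed at neither. The genes most like Plau were Armc5 (r = 0.985), the DNA glycosylase gene Ogg1 (r = 0.965) and Arid5a (r = 0.963). For Serpinb2 they were Nipal1 (r = 0.964), the noncoding RNA gene Ftx (r = 0.962) and Maml2 (r = 0.961). These correlations describe 8 libraries in 4 groups, rest largely on the differences between groups, and carry no p. Among the members, Plau and Serpinb2 were the most alike pair (r = 0.817), and the pair least alike was Plat and Serpinb2 (r = -0.634). Serpinb2 had at most 10 counts in any library outside DMSO at 6 h, the group through which it passed the filter. All correlations with Serpinb2 given here thus rest mostly on DMSO at 6 h being its highest group, and nothing further is read from them.

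**Figure D5:**
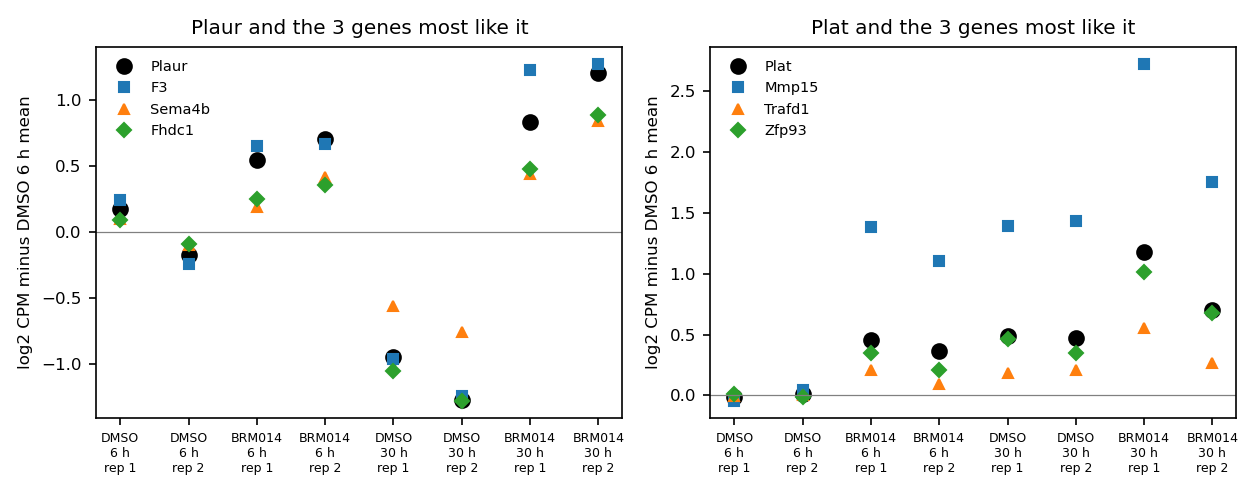
Log2 CPM minus the mean of the 2 DMSO 6 h libraries (vertical axis) for Plaur (left) and Plat (right) and the 3 genes most like each, in the 8 libraries. Points are libraries. Plaur, F3, Sema4b and Fhdc1 lie below 0 in both DMSO 30 h libraries and above 0 in all 4 BRM014 libraries.

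The 2 nearest protein-coding genes on each side of a member, in the order of RefSeq on GRCm38.p6, were looked up after the members' values had been seen. Of these 20 neighbours 15 were tested, and 5 rose at 6 h and 4 at 30 h, against 9.35% and 16.8% of all tested genes. Next to Plaur, Cadm4 did not pass at either time (0.23 ± 0.16 and 0.01 ± 0.15), nor did Zfp428 beyond it (-0.39 ± 0.17 and -0.12 ± 0.17), while Smg9 on the other side rose at both (0.48 ± 0.12 and 0.64 ± 0.12). Irgc1, between Smg9 and Plaur, was not tested. Next to Plat, Ap3m2 rose at both times (1.25 ± 0.16 and 1.2 ± 0.16) and Ikbkb did not pass (0.01 ± 0.09 and 0.21 ± 0.09). Around Serpinb2, its relatives Serpinb7, Serpinb10 and Serpinb11 were too low to be tested, and Serpinb8 did not pass at either time.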

How the data were processed

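For 8 libraries the authors deposited whole-number read counts of genes, named by symbol and Entrez ID, made with a stranded total RNA kit and read as single reads of 50 bases, per the labels' protocols. The submitters' processing notes name mm9, Subread, SAMtools 0.1.19 and featureCounts, with no order; the annotation and strand setting were not given in the sources used here. Testing used edgeR 4.0.16 (R 4.3.3). Of 21240 genes, filterByExpr kept 11835; TMM factors were 0.935 to 1.05; a single quasi-likelihood model had a mean per group, leaving 4 residual degrees of freedom. All tests were 2-sided, p-values were adjusted by Benjamini-Hochberg over all tested genes in each of 5 comparisons (threshold 0.05), and an SE is the log2 fold change divided by the square root of F. CPM values use TMM-scaled library totals. Depth was 17859693 to 29955366 counts per library, and exact intervals and floors of 3 counts cover counting error only. The genes named are the 5 members, at most 3 passing genes with the smallest p per list and time, and the 3 genes with the highest correlation to each tested member, leaving out symbols of the form Gm plus digits or ending in Rik. Further genes are named to complete a list, or for a filter limit, a marker list or a neighbourhood. Members and lists were chosen with earlier results of these data known, and 1 gene of the lists is not reported here and is left out of their counts. The alternatives were RLE factors, library totals, ribosomal protein scaling, no filter, a filter of 1 CPM in 4 libraries, DESeq2 1.42.0, limma-voom (limma 3.58.1), only the 4 libraries compared, a replicate block and each library left out. The fit was also run on counts simulated from its own estimate of the spread, which checks the code and not the results given here.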

Additional observations from a re-analysis of the deposited data

Results flagged for a closer look

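For 15 genes the effect of BRM014 differed between 6 h and 30 h in a test of the difference itself (edgeR, adjusted p below 0.05). Of the members this held for Plaur (1.52 ± 0.21, 30 h minus 6 h on the log2 scale). The others were F3 (1.72), Serpinb9 (1.71), Procr (1.81), Itga3 (1.15), F2r (0.91), Ahnak (0.9), Itga5 (0.8), Krt8 (0.78), Itgav (0.76), Mmp14 (0.59) and Anxa2 (0.51), with the higher value at 30 h, and Mmp13 (-3.46), Serpinb9b (-2.3) and Hgfac (-1.74), with the lower. Single alternatives ended this call for Ahnak, Krt8, Anxa2, Itga5, Itgav, Mmp14, Hgfac, F2r and Procr, and none of the 16 run did for Plaur, F3, Itga3, Mmp13, Serpinb9 or Serpinb9b.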

How the results depend on the processing

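Plau at 6 h passed with no low count filter (-0.47), the 4 libraries compared (-0.47) and the replicate block (-0.49, adjusted p = 0.0047). Its fall in DMSO did not with library totals (-0.41), ribosomal scaling (-0.45), the stricter filter (-0.48) or the 4 libraries compared (-0.5), and its change in BRM014 was 0 with no filter. At 6 h ribosomal scaling ended the call of Plat (0.45) and DESeq2 that of Serpinb2 (-2.33), and limma-voom called the Serpinb2 difference between effects (4.74). With a library left out, the 6 h effects were -0.67 to -0.27 (Plau), 0.44 to 0.8 (Plaur), 0.39 to 0.49 (Plat) and -4.02 to -1.49 (Serpinb2). At 30 h they were -0.16 to 0.25 (Plau) and 0.23 to 0.7 (Plat), and the Plat difference between effects was -0.21 to 0.28. Changes in DMSO were -0.72 to -0.32 (Plau) and 0.46 to 0.5 (Plat), and in BRM014 -0.18 to 0.22 (Plau), 0.21 to 0.58 (Plaur) and 0.29 to 0.77 (Plat). Replicate numbers do not pair the samples by label, and deviations of same-numbered libraries correlated with r = 0.011 to 0.201 between groups; the block gave 726 higher and 511 lower genes for the difference between effects, against 460 and 306, and no filter gave 719 and 590. Library totals gave 1691 higher and 1391 lower genes at 6 h (1106 and 1709 with TMM) and 2754 and 1424 over time in DMSO (2133 and 2034 with TMM). Ribosomal scaling gave 1960 higher and 1435 lower at 30 h (1990 and 2258), 308 and 114 for the difference, 1881 and 1035 over time in DMSO and 2411 and 841 in BRM014 (2318 and 1999), where it shifted the median gene by 0.11. With a library left out, 479 to 1259 genes were higher and 943 to 1885 lower at 6 h, 198 to 540 and 119 to 385 for the difference, 1186 to 2302 and 1177 to 2049 over time in DMSO and 1253 to 2507 and 995 to 2179 in BRM014. The causes of these changes were not tested. Depth limits Serpinb2 and Serpine2, whose groups held 58 counts or fewer.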
